A study of Mus musculus with 3 samples.

Results

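The genes described here are the nuclear genes of oxidative phosphorylation (OXPHOS), taken by their symbols. Of 23271 gene symbols in the merged table, 93 begin with Nduf (complex I), Sdh (complex II), Uqcr (complex III), Cox4 to Cox8 (complex IV) or Atp5 (complex V) and carry no pseudogene suffix. By symbol, 45 belong to complex I, 6 to complex II, 8 to complex III, 17 to complex IV and 17 to complex V. They were measured by Seq-Well, a single-cell method that tags each captured transcript end with a unique molecular identifier (UMI). The cells came from organoids grown from crypts of the proximal small intestine of C57BL/6 mice. Across its experiments the paper used mice of both sexes, 3 to 6 months old. It does not state the sex of the 1 donor of these organoids. All 3 cultures received EGF, Noggin and R-spondin 1 and had been expanded in ENR+CV before the day 6 culture that was sampled. ENR had no other additive. ENR+CD had 3 µM CHIR99021, which activates Wnt signalling, and 10 µM DAPT, which blocks Notch cleavage, a combination meant to enrich Paneth cells (PCs). ENR+CV had 3 µM CHIR99021 and 1 mM valproic acid, a histone deacetylase inhibitor, a combination meant to keep intestinal stem cells. Each condition is 1 array of cells from 6 wells and 1 donor, so that condition, array and library cannot be told apart and no test between conditions could be made.

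Oxidative phosphorylation passes electrons from NADH and succinate through complexes I and II to ubiquinone, through complex III to cytochrome c and through complex IV to oxygen, while complexes I, III and IV pump protons that complex V (ATP synthase) uses to make ATP. Most subunits are encoded in the nucleus and imported into mitochondria, while a small set, among them the central subunits of complexes I, III and IV, is encoded in mitochondrial DNA, so that both sets must be matched. In the intestinal crypt, PCs are known for glycolytic metabolism and the neighbouring stem cells for mitochondrial respiration.

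The per-library count tables of ENR+CD and ENR+CV go against their labels. All 2506 cells named as ENR+CD in the merged table lay in the per-library table whose sample is labelled ENR+CV, and all 1092 cells named as ENR+CV lay in that of ENR+CD. Cells were grouped by their names in the merged table, and every direction rests on those names. Between ENR and ENR+CD 1 cell barcode was shared, and none in the other pairs. After leaving out cells with under 400 genes or with 8000 or more UMIs, 2545 ENR, 2383 ENR+CD and 985 ENR+CV cells remained, with 5095089, 4538388 and 2942252 UMIs. The median cell had 1553, 1543 and 2499 UMIs. Epcam, an epithelial surface protein, was at 1211 CPM in ENR against 1189.6 in ENR+CD and 1689.5 in ENR+CV. The 15 Paneth markers summed to 35032, 143051 and 5803 CPM, the 25 enteroendocrine markers to 4411, 9743 and 264, the 9 goblet markers to 8603, 12693 and 1220.5, and the 17 enterocyte markers to 4692, 1085 and 2187. The 9 stem cell markers stood at 2264, 1240.1 and 2884 CPM. Immune, tuft and red blood cell markers summed to between 0 and 40.8 CPM in each library and stromal and endothelial ones to at most 254. Proliferation genes were at 4949.7, 2849 and 5779.9 CPM and genes of dissociation stress at 2391, 3326 and 4591, and the part of these lists in the OXPHOS levels was not tested.

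The OXPHOS genes took the lowest share of transcripts in ENR+CD and the highest in ENR+CV. Summed over the kept cells, they made up 37913 CPM (ENR), 25505 (ENR+CD) and 48902 (ENR+CV), where CPM is UMIs per 1000000 UMIs of the library. In ENR+CD the sum was 0.673-fold (95% interval 0.668 to 0.678) that of ENR, in ENR+CV it was 1.29-fold (95% interval 1.28 to 1.30) that of ENR, and ENR+CD stood at 0.522-fold (95% interval 0.518 to 0.526) that of ENR+CV. The intervals are exact and cover counting error only, not the spread between cultures. In CPM, before the division by the ratio of the median gene given below, the order was shared by all 5 complexes. Complex I stood at 12525 CPM in ENR against 9510.4 in ENR+CD and 16455 in ENR+CV. Complex II stood at 1156 CPM (ENR), 657 (ENR+CD) and 1214 (ENR+CV). Complex III, which hands electrons to cytochrome c, stood at 5149 CPM in ENR against 2988 in ENR+CD and 7901 in ENR+CV, the widest spread of the 5 as a fold. Complex IV stood at 9944 CPM (ENR), 6346 (ENR+CD) and 11951 (ENR+CV). Complex V stood at 9140.4 CPM in ENR against 6004 in ENR+CD and 11381 in ENR+CV. Against ENR, the ENR+CD sums were 0.568-fold for complex II, 0.580-fold for complex III, 0.638-fold for complex IV, 0.657-fold for complex V and 0.759-fold for complex I. In ENR+CV they ran from 1.05-fold (95% interval 1.01 to 1.09) for complex II to 1.53-fold (95% interval 1.51 to 1.56) for complex III.

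**Figure D1:**
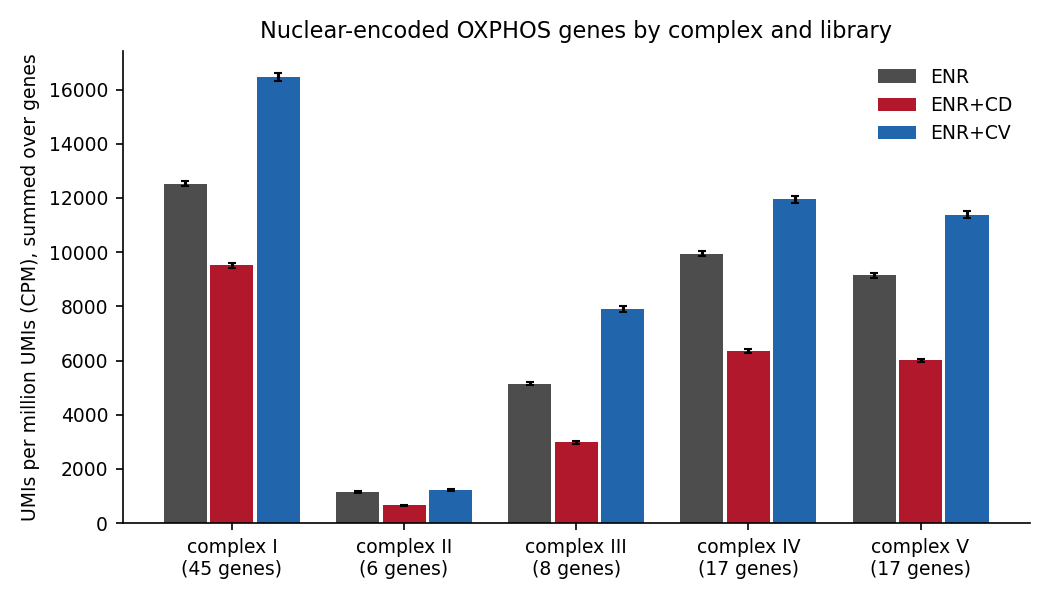
Summed CPM of the OXPHOS genes of each complex in the 3 libraries. Bars are the sums and lines their exact 95% Poisson intervals. ENR+CD is lowest and ENR+CV highest in every complex, from 657 and 1214 CPM in complex II to 9510.4 and 16455 in complex I.

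The same order held for the shares of single cells, with overlap that was least between ENR+CD and ENR+CV. The share of a cell's UMIs on OXPHOS genes was 3.81% ± 1.05 (mean and SD over 2545 cells) in ENR, 2.57% ± 0.838 over 2383 cells in ENR+CD and 4.67% ± 1.38 over 985 cells in ENR+CV. Their medians were 3.82%, 2.52% and 4.87%. From the 5th to the 95th percentile, ENR cells ran from 2.04% to 5.45%, ENR+CD cells from 1.25% to 4.06% and ENR+CV cells from 1.65% to 6.45%. Of ENR+CD cells, 7.64% lay above the ENR median, and of ENR+CV cells 78.3%. Above the ENR+CV median lay 0.881% of ENR+CD cells. No kept cell lacked an OXPHOS UMI, and the median cell held 60, 40 and 117 of them. Cells of 1 array are not replicates, and a smaller share of cells of one type cannot be told apart here from a lower level in each cell.

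Gene by gene, a lower level in ENR+CD than in ENR was found in all 5 complexes. A gene was called where its CPM differed at least 1.5-fold, the exact 95% Poisson intervals were separate and the pair of libraries held at least 20 UMIs, and 87 of the 93 genes held that many. Of these, 38 were called lower in ENR+CD, where 17.0% of all 12197 genes so tested were, and 1 was called higher, against 16.1% of all genes. The median OXPHOS gene was at -0.52 on the log2 scale, beside -0.01 for the median of all genes. Among genes with at least 1000 UMIs in the pair, 33 of 71 OXPHOS genes and 24.6% of all 1417 were lower. With UMIs counted outside the alpha-defensin (Defa) genes, which took 2.93% of UMIs in ENR and 10.6% in ENR+CD, 25 OXPHOS genes were called lower, beside 13.7% of all genes. All 25 were among the 38. Counted in this way, 22 OXPHOS genes were called higher in ENR+CV than in ENR, beside 26.8% of all genes. In ENR+CD, 53 were called lower than in ENR+CV, beside 25% of all genes. The cause of the remaining calls was not tested.

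In complex I, 13 of 44 tested genes were lower in ENR+CD, beside 17.0% of all genes. The 13 include core subunits, which carry the flavin and iron-sulfur clusters. Ndufv1, which binds NADH and the flavin, was at 183 CPM (ENR), 79.8 (ENR+CD) and 273 (ENR+CV), a ratio of ENR+CD to ENR of 0.435-fold (95% interval 0.384 to 0.492). Ndufs7 was at 263 CPM in ENR against 127 in ENR+CD and 233 in ENR+CV, Ndufs8 at 279 (ENR), 173 (ENR+CD) and 380 (ENR+CV), and Ndufv2 at 389 in ENR against 242 in ENR+CD and 408 in ENR+CV. Counted outside Defa genes, Ndufs8 and Ndufv2 were no longer called. The core subunits Ndufs1 and Ndufs3 were not called. Ndufs1 was at 84.002 CPM (ENR), 57.5 (ENR+CD) and 106 (ENR+CV), and Ndufs3 at 107 in ENR against 80.6 in ENR+CD and 146 in ENR+CV. Among accessory subunits, Ndufa10 had the lowest ratio at 0.476-fold (95% interval 0.425 to 0.533), with 201 CPM (ENR), 95.6 (ENR+CD) and 333 (ENR+CV). The 3 genes with most UMIs under a complex I symbol stood near their ENR level in ENR+CD. Ndufa4, which is named for complex I but is now placed in complex IV, was at 1048 CPM in ENR against 957 in ENR+CD and 1251 in ENR+CV. Ndufa6 was at 891 CPM (ENR), 831 (ENR+CD) and 1065 (ENR+CV) and Ndufa7 at 576 in ENR against 480.1 in ENR+CD and 566 in ENR+CV. None of these 3 was called in any pair.

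Ndufa1, a small membrane-arm subunit, was the exception. It was at 190 CPM (178 to 202) in ENR, 339 CPM (322 to 356) in ENR+CD and 468 CPM (444 to 494) in ENR+CV, with 95% Poisson intervals in brackets. It was the one OXPHOS gene called higher in ENR+CD than in ENR, at 1.78-fold (95% interval 1.64 to 1.93), and stayed so when the counts were taken outside Defa genes or divided by the ratio of the median gene.

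All 4 subunits of succinate dehydrogenase, complex II, were lower in ENR+CD, and its assembly factors were not. Of all genes, 17.0% were lower. Sdha, the flavoprotein, was at 217 CPM (ENR), 111 (ENR+CD) and 194 (ENR+CV), and Sdhb, the iron-sulfur subunit, at 386 in ENR against 200.1 in ENR+CD and 417 in ENR+CV. The membrane anchors Sdhc and Sdhd were at 167 CPM (ENR), 79.3 (ENR+CD) and 236 (ENR+CV), and at 306 in ENR against 168 in ENR+CD and 263 in ENR+CV. The ratios of ENR+CD to ENR of the 4 subunits lay between 0.474 and 0.551. The assembly factors Sdhaf1 and Sdhaf2 were at 1.17-fold (0.975 to 1.41) and 1.30-fold (1.05 to 1.60), both above 1.

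In complex III, 5 of 8 genes were lower in ENR+CD, beside 17.0% of all genes. The Rieske iron-sulfur protein Uqcrfs1, the core subunit of complex III here, was at 313 CPM (ENR), 167 (ENR+CD) and 324 (ENR+CV). Uqcrq was at 1455 CPM in ENR against 637 in ENR+CD and 1948 in ENR+CV, Uqcr10 at 977 (ENR), 485 (ENR+CD) and 1907 (ENR+CV), and Uqcr11 at 683 in ENR against 490.5 in ENR+CD and 1461 in ENR+CV. In ENR+CD, Uqcrq and Uqcr10 were at 0.438-fold and 0.496-fold of ENR, while Uqcr11 was not called. The large core proteins Uqcrc1 and Uqcrc2 were at 0.483-fold and 0.548-fold. Uqcrb, which lies near the ubiquinone site, stood out with 309.9 CPM (ENR), 341 (ENR+CD) and 341 (ENR+CV), 1.10-fold (95% interval 1.02 to 1.18) in ENR+CD. Cyc1, the cytochrome c1 of the same complex, falls outside the symbols and was at 316 CPM in ENR against 125 in ENR+CD and 398 in ENR+CV.

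In complex IV, 9 of 13 tested genes were lower in ENR+CD, beside 17.0% of all genes. Counted outside Defa genes, Cox5a, Cox6a1, Cox8a and the tissue forms Cox6b2 and Cox7a1 were still called lower. Cox4i1, Cox6b1, Cox7a2 and Cox7b were not. Cox4i1, the most abundant of all 93 genes by UMIs, was at 1754 CPM (1718 to 1791) in ENR, 1091 CPM (1061 to 1122) in ENR+CD and 2493 CPM (2436 to 2550.4) in ENR+CV. Cox6c was at 1401 CPM (ENR), 976 (ENR+CD) and 1734 (ENR+CV), and Cox6a1 at 1035 in ENR against 592 in ENR+CD and 1528 in ENR+CV. Cox5a had the lowest ratio among the common subunits at 0.531-fold (95% interval 0.496 to 0.569). Cox7a2l, a factor of respiratory supercomplexes rather than a subunit, was not called in any pair, with 427 CPM (ENR), 349 (ENR+CD) and 453 (ENR+CV).

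In complex V, 7 of 16 tested genes were lower in ENR+CD, beside 17.0% of all genes. Among the 7 were 4 of the 5 subunits of the catalytic F1 head. Counted outside Defa genes, Atp5c1 of that head, Atp5g3 and Atp5sl were no longer called. Atp5b, the catalytic beta subunit, was at 1208 CPM (1178 to 1239) in ENR, 577 CPM (555 to 599.8) in ENR+CD and 1436 CPM (1393 to 1480.3) in ENR+CV. Atp5a1 was at 764 CPM in ENR against 395 in ENR+CD and 789.5 in ENR+CV, Atp5c1 at 888 (ENR), 591 (ENR+CD) and 876 (ENR+CV), and Atp5d at 382 in ENR against 188 in ENR+CD and 616 in ENR+CV. Atp5e, the small epsilon subunit, was not called between ENR and ENR+CD, with 714 CPM (ENR), 580.4 (ENR+CD) and 1190.2 (ENR+CV). Of the stalk and membrane subunits, Atp5j was at 924 CPM in ENR against 679 in ENR+CD and 1368 in ENR+CV, and Atp5j2 at 885 (ENR), 669.6 (ENR+CD) and 928 (ENR+CV). Atp5s and Atp5sl, which share the symbol but are not subunits, were at 21.8 CPM in ENR against 16.3 in ENR+CD and 22.4 in ENR+CV, and at 20.8 (ENR), 13.0002 (ENR+CD) and 14.95 (ENR+CV).

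Set side by side by role, the core subunits stood further below ENR than the accessory subunits and the assembly factors, and the tissue forms, described with their common forms, further still from few UMIs. Of the 17 core subunits, 14 were called lower in ENR+CD (82.4%), with a median log2 ratio of -0.91. Of 55 accessory subunits, 20 were (36.4%), with a median of -0.49. Of 9 assembly factors, 1, Ndufaf6, was (11.1%), with a median of -0.38. Of all genes, 17.0% were called lower. Counted outside Defa genes, the core subunits Atp5c1, Ndufs8 and Ndufv2, the assembly factor Ndufaf6 and some accessory subunits were no longer called. Summed, the core subunits were at 0.573-fold (95% interval 0.563 to 0.584), the accessory subunits at 0.683-fold (95% interval 0.678 to 0.689) and the assembly factors at 0.833-fold (95% interval 0.781 to 0.888). The 2 tissue forms tested, Cox6b2 and Cox7a1, were both called lower, and the tissue forms summed to 0.347-fold (95% interval 0.239 to 0.493). The assembly factors rest on fewer UMIs, 438 CPM in ENR against 6892 for the core subunits.

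In ENR+CV the OXPHOS sum was higher than in ENR, but so was the typical gene. Of 87 tested OXPHOS genes, 25 were called higher than in ENR, where 28.7% of all 11962 genes were, and 1 was lower, against 7.83%. The median OXPHOS gene was at 0.31 and the median of all genes at 0.35 on the log2 scale, a shift of the whole library that goes with its low share of mitochondrially encoded UMIs, 3.89% against 16.5% in ENR. The part of that share in the shift was not tested. Divided by the ratio of the median gene, the summed ratio was 1.01, with 9 OXPHOS genes called higher and 6 lower, and 14.7% and 14.1% of all genes. With Defa, mitochondrially encoded and cytosolic ribosomal protein genes taken out of the total, it was 1.07. The list as a whole was therefore at about the level of the median gene. By complex, the median log2 ratio less that of all genes was 0.08 (complex I), -0.13 (II), 0.07 (III), -0.15 (IV) and -0.23 (V).

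As counted, before dividing by the ratio of the median gene, the genes called higher in ENR+CV lay mostly in complexes I and III. Of complex I 18 of 44 tested genes, 3 of 8 of complex III, 3 of 16 of complex V, 1 of 13 of complex IV and 0 of 6 of complex II were called higher. Of all genes, 28.7% were. Ndufb4, a membrane-arm subunit, was at 153 CPM (143 to 164) in ENR, 131 CPM (121 to 142) in ENR+CD and 470 CPM (446 to 495) in ENR+CV, 3.07-fold (95% interval 2.81 to 3.36) above ENR. Ndufs5 was at 66.3 CPM in ENR against 60.8 in ENR+CD and 154 in ENR+CV, and Ndufv3 at 213 (ENR), 163 (ENR+CD) and 455 (ENR+CV). Atp5k, subunit e of the ATP synthase membrane part, was at 392 CPM in ENR against 293 in ENR+CD and 859 in ENR+CV. Uqcr11 and Uqcr10, small subunits of complex III, were at 2.14-fold and 1.95-fold. Divided by the ratio of the median gene, the 9 still called higher were Atp5k, Cox6b2, Ndufa1, Ndufa3, Ndufb4, Ndufs5, Ndufv3, Uqcr10 and Uqcr11. The 6 called lower were Atp5sl, Cox7a1, Ndufaf1, Ndufb11, Ndufb5 and Ndufc2. Of all genes, 14.7% were then higher and 14.1% lower. Complex I genes were thus called both ways, and its excess of higher calls held only as counted. The core subunits Atp5d and Atp5e, called higher as counted, were not called after this division.

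Between ENR+CD and ENR+CV the contrast was widest. Of 87 tested OXPHOS genes, 62 were lower in ENR+CD, against 31.8% of all 12099 genes, and 0 were higher, against 9.53%. The median OXPHOS gene was at -0.87 and the median of all genes at -0.36. Divided by the ratio of the median gene, 37 were lower and 0 higher, beside 17.5% and 17% of all genes, and the summed ratio was 0.670. Apart from Cox6b2, the lowest ratios were those of Uqcr10 at 0.254-fold, Ndufb4 at 0.278-fold, Ndufa10 at 0.287-fold and Ndufv1 at 0.292-fold. Over the 3 libraries, 68 of 88 OXPHOS genes with at least 20 UMIs in all were ordered ENR+CD below ENR below ENR+CV, as were 30.5% of all genes with that many. ENR was highest in 15 others, with ENR+CD lowest. Ndufa1, Sdhaf1, Sdhaf2 and Uqcrb had ENR lowest, and Cox7a1 had ENR+CV lowest. These orders include neighbours that did not differ beyond their intervals.

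**Figure D2:**
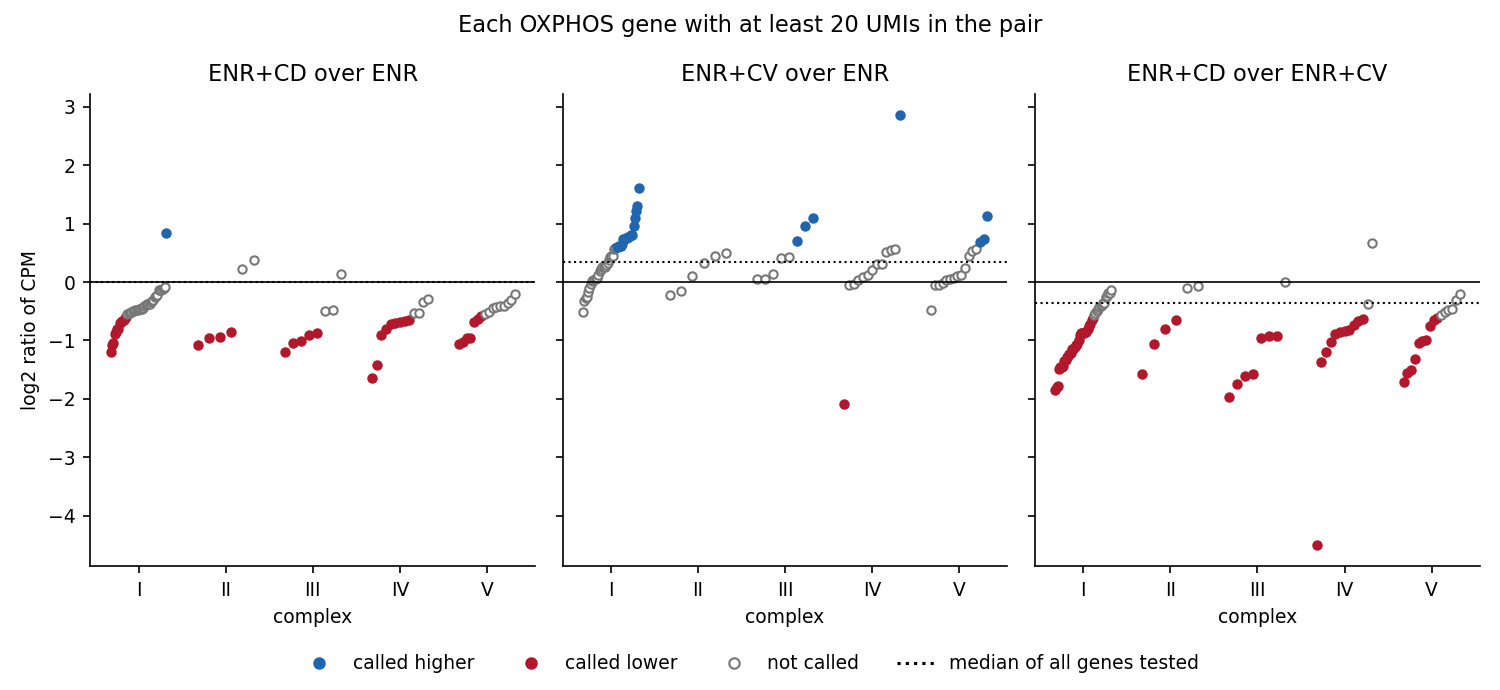
Log2 ratio of CPM of each of the 87 OXPHOS genes with at least 20 UMIs in the pair, by complex and sorted within it, for the 3 pairs of libraries. Filled points were called higher (blue) or lower (red) and open ones were not, and the dotted line is the median of all genes tested (-0.01, 0.35 and -0.36). Most points lie below the dotted line in the outer panels and around it in the middle one.

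Several subunits have a second gene known from heart, muscle, testis or lung, and these were near or at 0 with the exception of Cox6b2 and Cox7a1. Cox6b2, the testis form of the subunit 6B that caps the cytochrome c side of complex IV, was at 6.87 CPM (4.78 to 9.55) in ENR, 2.20 CPM (1.06 to 4.05) in ENR+CD and 49.96 CPM (42.2 to 58.7) in ENR+CV, from 35, 10 and 147 UMIs. Its ENR+CV level was 7.27-fold (95% interval 5.002 to 10.8) that of ENR, the highest ratio of the list. The common form Cox6b1 was at 1062 CPM (ENR), 679 (ENR+CD) and 1222 (ENR+CV) and was not called between ENR+CV and ENR. Cox7a1, the heart and muscle form of subunit 7A, ran the other way, with 18.8 CPM (15.3 to 23.01) in ENR, 7.05 CPM (4.82 to 9.95) in ENR+CD and 4.42 CPM (2.35 to 7.56) in ENR+CV. It was lower than ENR in both, at 0.374-fold (95% interval 0.243 to 0.564) and 0.235-fold (95% interval 0.120 to 0.420), and ENR+CD and ENR+CV were not called apart. The common form Cox7a2 was at 1047 CPM in ENR against 656 in ENR+CD and 1019 in ENR+CV. Since each UMI tags 1 transcript end, these levels do not scale with the length of the transcript. How reads of near-identical copies were shared out is not given in the sources used here, so comparisons between these genes carry that limit. Of the others, Cox6a2 and Ndufa4l2 had 4 UMIs each in all, Cox7b2 had 2, Cox4i2 had 1 and Cox8c had 0, which allows up to 3 UMIs in each library. Of the 3 genes of the membrane c-ring, Atp5g3 and Atp5g1 were at 469 and 285 CPM in ENR and Atp5g2 at 1.96, from 22 UMIs in all 3 libraries. These 6 genes were too low to be tested.

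**Figure D3:**
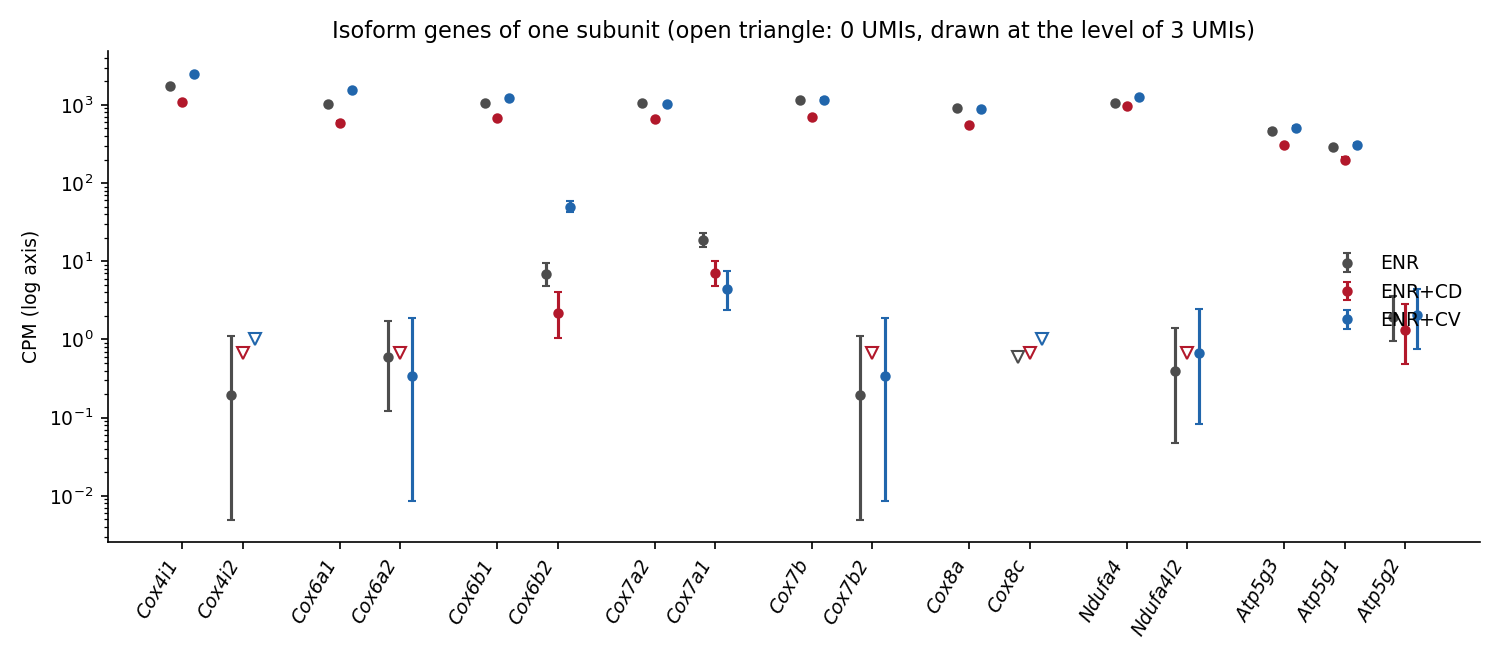
CPM on a log axis of genes that encode forms of the same subunit, in the 3 libraries, with exact 95% Poisson intervals. Open triangles mark 0 UMIs and stand at the level of 3 UMIs. Cox6b2 is highest in ENR+CV at 49.96 CPM and Cox7a1 in ENR at 18.8 CPM, while the common forms lie between 550.4 and 2493 CPM outside the c-ring genes.

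The promoters of OXPHOS genes are known to share binding sites for NRF1, GABP of the ETS family, ERR alpha and YY1, and the letters of these sites were searched in the windows around the starts. RefSeq start windows of 300 bases (250 before and 50 after the start, GRCm38.p6) were held for 74 of the 93 genes by symbol and for 17492 protein-coding genes. The 74 genes had 79 windows, and a gene was counted where any of its windows held the letters. On either strand, the NRF1 letters GCGCATGCG were held by 10 of 74 OXPHOS genes (13.5%) and by 2.61% of all genes. The GABP letters CCGGAAG were held by 19 (25.7%, beside 12.9%), the ERR alpha letters AAGGTCA by 8 (10.8%, beside 4.73%) and the YY1 letters AAGATGGCG by 7 (9.46%, beside 2.14%). At least 1 of these motifs was held by 47.3% of OXPHOS genes and 20.7% of all. The OXPHOS windows also held more CpG dinucleotides, with a median of 19 against 13, and a median GC content of 58.4% against 56.3%. A match is a run of letters and not a site shown to be bound.

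Shown are the windows of Uqcr11 and Atp5k, which were among the genes highest in ENR+CV relative to ENR and carry NRF1 letters, and of the pair Cox6b1 and Cox6b2, the common and the testis form of 1 subunit, of which the second was highest in ENR+CV. They read 5′ to 3′ on the strand of the gene, with motif letters in capitals. In Uqcr11 the capitals mark GABP and, on the opposite strand, NRF1, and in Atp5k a run in which NRF1 letters of both strands overlap, GABP on the opposite strand and the ERR alpha letters. In Cox6b1 they mark GABP on the opposite strand. Cox6b2 holds none of the motifs, with 10 CpG dinucleotides against 17 in Cox6b1.
Uqcr11, chr10:80406772-80407071, minus strand: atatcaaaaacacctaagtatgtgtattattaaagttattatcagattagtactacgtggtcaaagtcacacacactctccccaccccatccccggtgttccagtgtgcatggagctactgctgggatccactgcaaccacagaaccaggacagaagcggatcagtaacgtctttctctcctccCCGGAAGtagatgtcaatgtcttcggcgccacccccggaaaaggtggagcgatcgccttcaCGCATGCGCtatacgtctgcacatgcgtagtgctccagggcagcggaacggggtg
Atp5k, chr5:108434350-108434649, minus strand: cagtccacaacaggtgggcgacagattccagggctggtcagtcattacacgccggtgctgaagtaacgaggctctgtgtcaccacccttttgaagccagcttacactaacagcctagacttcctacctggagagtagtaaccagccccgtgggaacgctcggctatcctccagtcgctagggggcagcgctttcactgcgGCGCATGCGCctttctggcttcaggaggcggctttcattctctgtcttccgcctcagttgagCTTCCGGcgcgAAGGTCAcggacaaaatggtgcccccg
Cox6b1, chr7:30626065-30626364, minus strand: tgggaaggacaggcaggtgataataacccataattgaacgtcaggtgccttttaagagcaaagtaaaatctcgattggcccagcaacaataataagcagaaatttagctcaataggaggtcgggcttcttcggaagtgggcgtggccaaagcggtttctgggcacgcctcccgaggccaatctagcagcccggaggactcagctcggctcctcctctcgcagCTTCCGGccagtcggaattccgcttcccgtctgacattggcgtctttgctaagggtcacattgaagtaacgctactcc
Cox6b2, chr7:4753045-4753344, minus strand: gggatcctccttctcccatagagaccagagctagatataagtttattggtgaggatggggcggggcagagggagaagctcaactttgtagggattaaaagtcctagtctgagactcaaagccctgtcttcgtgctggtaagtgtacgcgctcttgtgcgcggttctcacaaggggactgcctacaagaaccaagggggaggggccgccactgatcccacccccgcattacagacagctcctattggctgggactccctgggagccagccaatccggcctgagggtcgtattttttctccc

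Within a library, cells with more defensin transcripts gave fewer of their other transcripts to OXPHOS. The median of genes with enough UMIs, as set out below, was lower by a like amount. Cells were put in bins of the share of their UMIs on the 13 Defa genes, the alpha-defensins that PCs secrete, and OXPHOS levels were taken as CPM of the UMIs outside Defa genes. In ENR they stood at 40085 in the 1305 cells with under 1% Defa, between 37978 and 39377 from 1% to 10%, at 34939 from 10% to 20% and at 29087 from 20% to 30% (46 cells). In ENR+CD they stood at 32010.1 under 1% (290 cells), between 29362 and 30808 from 1% to 10%, at 27664 from 10% to 20% (931 cells), at 21217 from 20% to 30% and at 18004 in the 58 cells with 30% or more. The highest bin of at least 20 cells was at 0.726-fold (95% interval 0.694 to 0.759) the lowest in ENR and at 0.562-fold (95% interval 0.536 to 0.590) in ENR+CD. By complex, these ratios ran from 0.519 in complex II to 0.846 in complex III in ENR, and from 0.543 in complex IV to 0.624 in complex III in ENR+CD. In ENR+CV, 959 of 985 cells lay under 1% and no other bin held 20 cells.

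The median of genes with enough UMIs was also lower along these bins, in which the share of other defensin transcripts was higher. Outside Defa genes, the 13 alpha-defensin genes with predicted symbols took 0.157% of UMIs in the lowest and 18.6% in the highest ENR+CD bin, and 0.0655% and 10.01% in ENR. Among genes with at least 10 UMIs foreseen in the highest bin from their total, the median log2 ratio was -0.46 over 1017 genes in ENR and -0.88 over 1799 in ENR+CD. The OXPHOS genes among them had medians of -0.45 (69 genes) and -0.82 (71 genes), with 34 and 32 of them below the median gene. Divided by the ratio of the median gene, the summed ratio was 0.999 in ENR and 1.04 in ENR+CD. The OXPHOS genes were thus not lower in Defa-rich cells than the median of these genes was. Over all genes with at least 20 UMIs in both bins together, the medians were 0.19 in ENR and -0.76 in ENR+CD. The OXPHOS genes were then at -0.48 and -0.81. A count of 0 was set to 3 UMIs there, which lifts genes with few UMIs, so these medians do not compare like with like. Mitochondrially encoded UMIs were at 0.694-fold (95% interval 0.679 to 0.709) and 0.514-fold (95% interval 0.4999 to 0.528) and cytosolic ribosomal protein UMIs at 0.801-fold (95% interval 0.781 to 0.821) and 0.714-fold (95% interval 0.697 to 0.731) between the same bins.

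**Figure D4:**
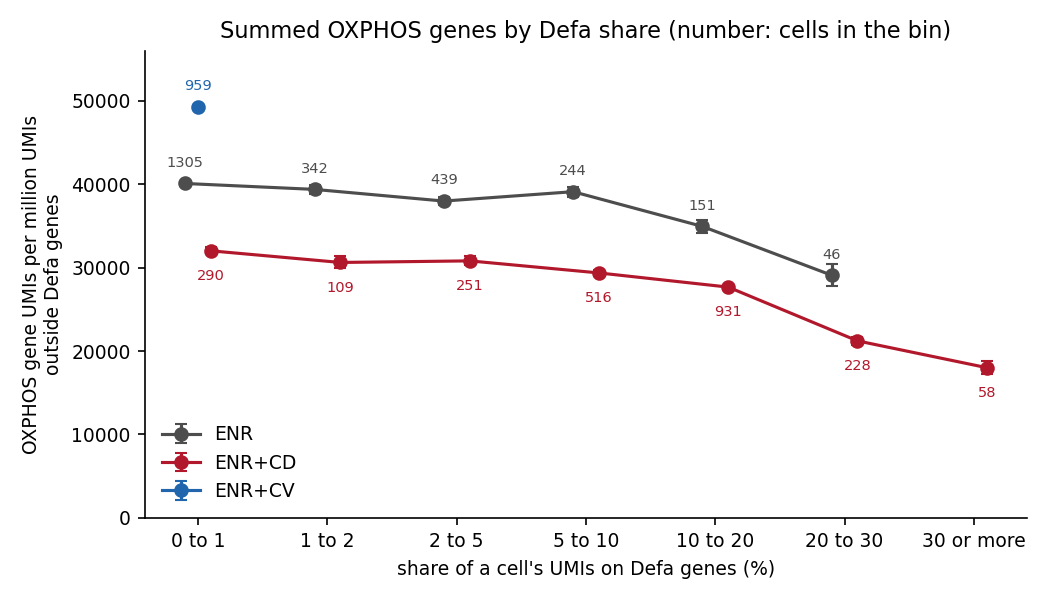
OXPHOS CPM of the UMIs outside Defa genes in bins of the Defa share of a cell, for each library, with exact 95% Poisson intervals and the number of cells in each bin (bins of under 20 cells are not drawn). ENR+CD lies below ENR in each of the 6 bins they share, and both descend above 10%, to 29087 and 18004 in their highest bins.

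Of 87 OXPHOS genes tested between the highest and lowest Defa bin of ENR, 17 were called lower, where 2.92% of all genes were, and 1 higher, against 1.76%. In ENR+CD, 41 of 80 were lower, against 13.8%, and 0 higher, against 1.42%. Genes with few UMIs in the highest bin could hardly be called, and 69 of 87 OXPHOS genes in ENR and 71 of 80 in ENR+CD reached 10 foreseen UMIs there, so these shares do not compare like with like. The gene called higher in ENR was again Ndufa1, at 1.85-fold (1.16 to 2.80) from 23 UMIs in the highest bin. In ENR+CD it was at 0.837-fold (0.562 to 1.21) and not called. Among genes with at least 100 UMIs in both bins together, Ndufb10 and Atp5l came next in ENR at 1.46-fold (0.825 to 2.39) and 1.16-fold (0.593 to 2.04). Of the same genes, Sdhaf1 and Sdhaf2 had 0 UMIs in the highest bin of ENR, with ratios of up to 1.07 and 1.503 within their intervals, too few to be ranked. The lowest others were Ndufa10 at 0.279-fold (0.0757 to 0.717), Ndufb3 at 0.296-fold (0.0609 to 0.871) and Sdhd at 0.304-fold (0.122 to 0.629). Among the lowest in ENR+CD were Ndufa10 at 0.231-fold (0.0469 to 0.697) and Ndufc1 at 0.280-fold (0.152 to 0.476), and the highest of those with at least 100 UMIs were Ndufs7 at 0.952-fold (0.504 to 1.67), Ndufb6 at 0.935-fold (0.602 to 1.40) and Atp5g1 at 0.924-fold (0.550 to 1.47).

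At the same Defa share, ENR+CD cells still stood below ENR cells. The ratio of ENR+CD to ENR was 0.799 (0.788 to 0.810) in cells under 1% Defa, 0.778 (0.757 to 0.799) from 1% to 2%, 0.811 (0.795 to 0.828) from 2% to 5%, 0.751 (0.736 to 0.766) from 5% to 10%, 0.792 (0.773 to 0.811) from 10% to 20% and 0.729 (0.694 to 0.767) from 20% to 30%, with 95% intervals in brackets. Over all cells it was 0.673 of all UMIs, or 0.730 outside Defa genes. Under 1% Defa there were 290 ENR+CD and 1305 ENR cells. Enteroendocrine markers took 1.46% of UMIs in those ENR+CD cells and 0.521% in the ENR cells, enterocyte markers 0.149% and 0.523%. Cells alike in their share of the named Defa genes were not alike in all defensins. Outside Defa genes, the predicted alpha-defensins took 7.78% of UMIs in ENR+CD and 5.21% in ENR from 10% to 20% Defa. From 20% to 30% Defa they took 15.6% in ENR+CD and 10.01% in ENR. The part of these markers and defensins in the ratios was not tested. ENR+CV cells under 1% Defa were at 1.23 (1.22 to 1.24) of ENR cells.

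The nuclear and the mitochondrially encoded genes of the chain had like ratios of ENR+CD to ENR, while in ENR+CV the mitochondrially encoded ones were lower and the nuclear ones higher than in ENR. The 13 protein genes of mitochondrial DNA, which encode subunits of complexes I, III, IV and V, summed to 34051 CPM (ENR), 21902 (ENR+CD) and 8898 (ENR+CV). In ENR+CD they were at 0.643-fold (95% interval 0.638 to 0.648) of ENR, close to the 0.673-fold of the nuclear genes, and in ENR+CV at 0.261-fold (95% interval 0.258 to 0.265), beside 1.29-fold. The nuclear genes thus had 1.11 UMIs (1.11 to 1.12) for each mitochondrially encoded one in ENR, 1.16 (1.15 to 1.17) in ENR+CD and 5.50 (5.42 to 5.57) in ENR+CV. Of the mitochondrially encoded genes, 7 of 13 were lower in ENR+CD than in ENR and 12 of 13 in ENR+CV, beside 17.0% and 7.83% of all genes. mt-Nd1 of complex I was at 10231 CPM in ENR against 6354 in ENR+CD and 2688 in ENR+CV, mt-Cytb of complex III at 8563 (ENR), 5064 (ENR+CD) and 1527 (ENR+CV), and mt-Co1 of complex IV at 4734 in ENR against 3156 in ENR+CD and 1392 in ENR+CV. mt-Nd3 was the one not called in ENR+CV, with 327 CPM (ENR), 395 (ENR+CD) and 244 (ENR+CV). Mitochondrial genes lie close together on both strands and reads are captured at poly(A) runs, so single levels among them are uncertain.

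In cells with a like mitochondrially encoded share, ENR+CV did not stand above ENR throughout. As CPM of the UMIs outside mitochondrially encoded genes, OXPHOS stood, in ENR+CV, at 53409.5 in the 418 cells with under 2% mitochondrially encoded UMIs, 51293 from 2% to 5%, 47009 from 5% to 10%, 37052 from 10% to 20% and 29859.9 in the 58 cells with 20% or more, 0.559-fold (95% interval 0.533 to 0.586) from end to end. Those cells also held fewer UMIs, with a median of 1351 against 3446, and fewer ribosomal protein UMIs, 7.85% against 13.6%, and their part in the descent was not tested. In ENR the level was 33611 from 2% to 5% (70 cells, in which Defa genes took 15.6% of the other UMIs) and between 43343 and 46619.9 above. In ENR+CD it was 17647 under 2% (49 cells, Defa 26.5%) and between 27633 and 28978 above. From 2% to 5%, ENR+CV was at 1.53 (1.48 to 1.57) of ENR, against 70 ENR cells. From 5% to 10%, where all 3 libraries had over 100 cells, ENR+CV was at 1.01 (0.987 to 1.03) of ENR and ENR+CD at 0.605 (0.598 to 0.612). With 20% or more, ENR+CV was at 0.689 (0.657 to 0.722) of ENR.

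**Figure D5:**
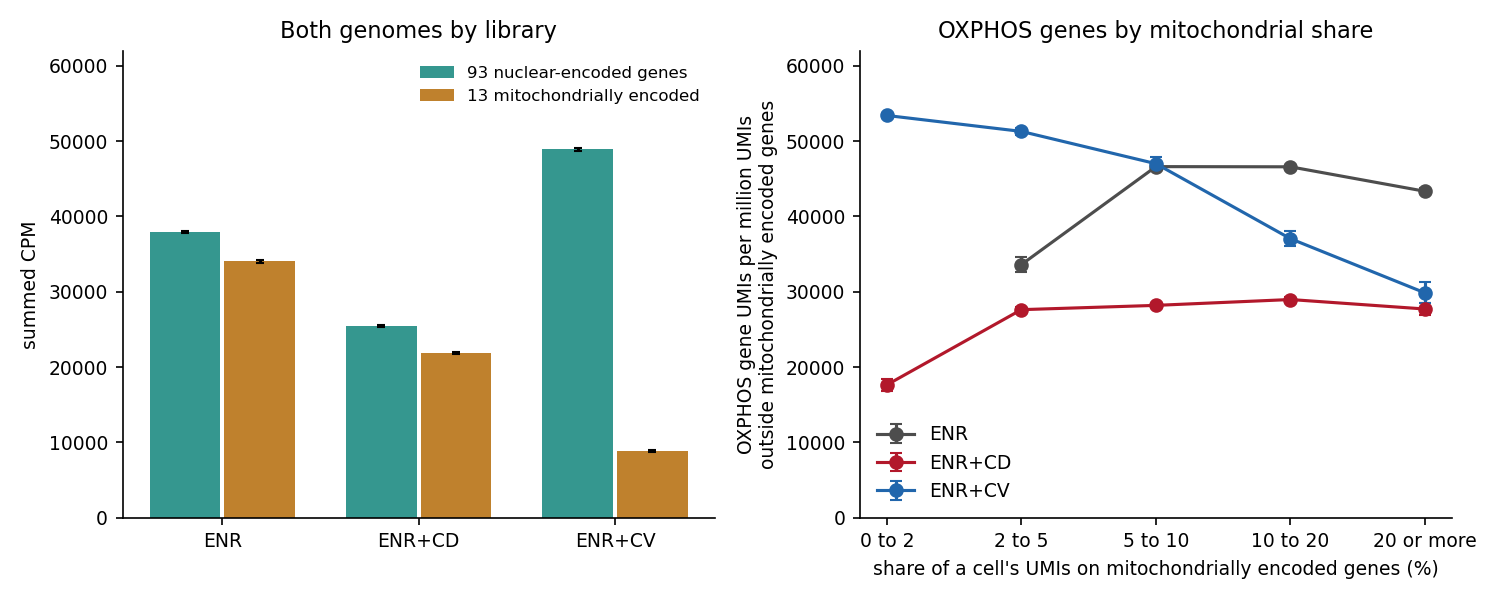
Left, summed CPM of the nuclear OXPHOS genes and of the 13 mitochondrially encoded ones in each library, and right, nuclear OXPHOS CPM of the UMIs outside mitochondrially encoded genes in bins of the mitochondrially encoded share of a cell, for bins of at least 20 cells. Lines are exact 95% Poisson intervals. The bars are of like height in ENR and in ENR+CD and 5.50 to 1 in ENR+CV, and on the right ENR+CV descends from 53409.5 to 29859.9.

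OXPHOS levels also differed with other markers and with depth. ENR cells with 3% to 6% of UMIs on enterocyte markers had 1.33-fold (95% interval 1.28 to 1.38) the OXPHOS level of those under 1%, from 26 cells, with complex II at 1.64-fold (95% interval 1.33 to 1.99) and complex IV at 1.49-fold (95% interval 1.39 to 1.60). Cells with 1% to 2% of UMIs on proliferation genes were at 1.15-fold (95% interval 1.13 to 1.17) of those under 0.5% in ENR, at 1.36-fold (95% interval 1.32 to 1.41) in ENR+CD and at 1.06-fold (95% interval 1.04 to 1.07) in ENR+CV. Defa genes stayed in the totals of these proliferation bins. For ENR+CD cells they took 11.5% of the other UMIs under 0.5% and 2.51% from 1% to 2%. The ENR shares were 3.85% and 0.539%, and the ENR+CV shares 0.589% and 0.0417%. The part of these Defa shares in the ratios was not tested. Enteroendocrine-rich cells (6% or more) were at 0.930-fold (95% interval 0.893 to 0.969) in ENR and 1.28-fold (95% interval 1.23 to 1.34) in ENR+CD of cells under 1%, where Defa genes took 2.16% and 11.5% of the other UMIs in ENR+CD. By depth, cells with 4000 or more UMIs were at 1.003-fold (95% interval 0.990 to 1.02) of cells with 1000 to 1500 in ENR, 0.986-fold (95% interval 0.969 to 1.004) in ENR+CD and 1.23-fold (95% interval 1.21 to 1.25) in ENR+CV. The ratio of ENR+CV to ENR accordingly ran from 1.09 (1.07 to 1.11) in the shallowest to 1.33 (1.32 to 1.35) in the deepest cells, while that of ENR+CD to ENR stayed between 0.665 and 0.685.

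Many of the genes that feed and serve the chain were lower in ENR+CD as well. Of 22 tested genes of pyruvate entry and the tricarboxylic acid cycle, 13 stood lower in ENR+CD and 0 higher, beside 17.0% and 16.1% of all genes. Their median log2 ratio was -0.69. Malate dehydrogenase Mdh2 was at 343 CPM in ENR against 190.4 in ENR+CD and 642 in ENR+CV, succinyl-CoA ligase Suclg1 at 313 (ENR), 139 (ENR+CD) and 376 (ENR+CV), and Pdha1 of pyruvate dehydrogenase at 214 in ENR against 116 in ENR+CD and 288 in ENR+CV. The pyruvate dehydrogenase kinase Pdk1, which switches that enzyme off, had a lower ratio than any of these at 0.238-fold (95% interval 0.192 to 0.293). Of the 5 electron carriers, 2 were lower, Cyc1 at 0.395-fold (95% interval 0.358 to 0.435) and Etfdh at 0.646-fold (95% interval 0.513 to 0.811). In the carriers of ADP, ATP and phosphate, the adenine nucleotide translocator genes parted. Slc25a5, the common form, was at 1447 CPM (ENR), 796 (ENR+CD) and 1659 (ENR+CV), and Slc25a4, the heart and muscle form, at 122 in ENR against 342 in ENR+CD and 437 in ENR+CV, which made it the one gene of 7 called higher in ENR+CD, with 4 called lower. Mitochondrial creatine kinase Ckmt1 was at 112 CPM (ENR), 22.5 (ENR+CD) and 123 (ENR+CV). Atpif1, the inhibitor of ATP synthase, was lower in ENR+CD at 0.588-fold (95% interval 0.566 to 0.611), 1 of 3 genes tested beside the complex.

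Of 35 assembly factors with other symbols, 11 were lower and 2 higher in ENR+CD, beside 17.0% and 16.1% of all genes, with a median log2 ratio of -0.40. Cox17, the copper chaperone of complex IV, was higher in both ENR+CD and ENR+CV, with 119 CPM (110 to 129) in ENR, 225 CPM (212 to 239.7) in ENR+CD and 335 CPM (314 to 356) in ENR+CV, and Tmem126b, of complex I assembly, was higher in ENR+CD, with 20.2 CPM in ENR against 44.9 in ENR+CD and 27.2 in ENR+CV. Of 20 mitochondrial ribosome genes, 7 were lower in ENR+CD, with Mrpl12 at 0.464-fold (95% interval 0.422 to 0.511). Of 16 tested regulators of mitochondrial biogenesis, 6 were lower. Tfam, which packages and transcribes mitochondrial DNA, was at 121 CPM (ENR), 62.6 (ENR+CD) and 82.9 (ENR+CV). Esrra, which encodes ERR alpha, was at 32.8 CPM in ENR against 15.2 in ENR+CD and 56.8 in ENR+CV, and the coactivator Ppargc1b at 15.3 (ENR), 3.08 (ENR+CD) and 9.86 (ENR+CV). In ENR+CV, 5 of 22 cycle genes, 4 of 16 regulators and 5 of 20 mitochondrial ribosome genes were called higher than in ENR, shares below the 28.7% of all genes, and none lower, with medians of 0.29, -0.12 and 0.13 beside 0.35 for all genes. Of assembly factors with other symbols, 5 were higher and 2 lower. Between ENR+CD and ENR+CV, 19 of 22 cycle genes, 5 of 5 electron carriers, 10 of 20 mitochondrial ribosome genes and 14 of 35 assembly factors were lower in ENR+CD, beside 31.8% of all genes, and 1 assembly factor, Tmem126b, was higher. Cytosolic ribosomal protein genes, the other large set of abundant housekeeping genes, were lower than in ENR in 28 of 85 cases in ENR+CD, with a median of -0.49 beside -0.52 for the OXPHOS genes, so a lower level in ENR+CD was shared with that set. In ENR+CV their median was -0.07 beside 0.31.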

How the data were processed

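Organoid cells were profiled by Seq-Well, 1 library for each of 3 conditions. Per the paper and the submitters' processing notes, the authors demultiplexed with bcl2fastq, aligned to mm10 through a Drop-seq portal (the notes also name STAR and Seurat), collapsed reads by cell barcode and UMI and deposited raw UMI counts per gene and cell. No source used here gives tool versions or the annotation. The merged table of counts holds cells of at least 1000 UMIs. The deposited read tables were not used.

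Cells with under 400 genes or with 8000 or more UMIs were left out, after the study's filter. The study's stated totals differ from the kept cells by at most 1 cell a library. No doublet caller was run. UMIs were summed over the cells of a library and scaled to its total. CPM have exact Poisson 95% intervals and ratios exact binomial ones, which cover counting error only. With 1 library a condition no p-value was computed. A call needed 1.5-fold, separate intervals and 20 UMIs in the pair. The call rule was tested on simulated data. The OXPHOS genes and the other lists were chosen with earlier results of these data known. Named are the 3 genes of each complex with most UMIs, core subunits, tissue forms, genes in the list by symbol only, called genes (5 each way if many), the extremes of the Defa bins and, from the other lists, called genes with most UMIs. Some genes outside this rule (Cox6b1, Cox5a, Uqcrb, Ndufaf6, Atp5g1 and Atp5g3, Cox7a2, Uqcrc1, Uqcrc2, Sdhaf1, Sdhaf2, mt-Nd3, Ppargc1b, Pdk1 and Ckmt1) were named after their values were seen. The values of 1 gene are not reported here on their own. Of the OXPHOS genes, 92 are in GENCODE vM21 and 1, Atp5sl, is not. The scripts used matplotlib 3.10.9, SciPy 1.17.1, NumPy 2.4.6 and Python 3.11.15.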

Additional observations from a re-analysis of the deposited data

Results flagged for a closer look

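Atp5l-ps1, a pseudogene symbol left out of the list, had 13, 15 and 6 UMIs in ENR, ENR+CD and ENR+CV, above the 3 that a count of 0 allows, and its parent Atp5l had 750, 580 and 590. How reads of near-identical copies were shared out is not given in the sources used here, so both counts are uncertain.

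OXPHOS transcripts were also present in the barcodes that the merged table leaves out. They made up 37918 CPM in 3349 ENR barcodes, 26709 in 5494 ENR+CD barcodes and 38181 in 3908 ENR+CV barcodes. In ENR and ENR+CD this lay near the level of the kept cells, and in ENR+CV below it, where mitochondrially encoded genes took 16.3% of these UMIs against 3.89% in kept cells.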

How the results depend on the processing

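No paired analysis was possible because each group is 1 library, and no library could be left out. Every summed ratio between libraries kept its direction under the settings tried, where the cause of each move was not tested. The summed ratios of ENR+CD to ENR, ENR+CV to ENR and ENR+CD to ENR+CV were, in this order, 0.730, 1.26 and 0.581 counting UMIs outside Defa genes, 0.641, 1.07 and 0.599 outside Defa, mitochondrially encoded and cytosolic ribosomal protein genes, 0.676, 1.01 and 0.670 dividing by the ratio of the median gene, 0.662, 1.29 and 0.511 with structural subunits only, 0.675, 1.28 and 0.526 without Cox4i1, 0.685, 1.33 and 0.514 with all merged cells, 0.664, 1.34 and 0.494 with cells of 2000 or more UMIs, 0.693, 1.26 and 0.550 with all barcodes, 0.676, 1.23 and 0.551 as an unweighted mean over cells, 0.798, 1.23 and 0.647 in cells under 1% Defa, 0.623, 1.22 and 0.511 without cells of 10% or more mitochondrially encoded UMIs. At 2-fold, 11 OXPHOS genes were lower and 0 higher in ENR+CD against ENR, 7 were higher in ENR+CV than in ENR and 35 lower in ENR+CD against ENR+CV. The share of all genes called at 2-fold was not computed, so these counts have no background beside them. Divided by the ratio of the median gene, the last pair had 37 lower, and ENR+CV had 9 higher and 6 lower than ENR, where the median log2 ratio turned from 0.31 to -0.0443. In ENR+CD against ENR, 25 were lower outside Defa genes, beside 13.7% of all genes, and 17 in cells under 1% Defa. In cells under 1% Defa, 2 were lower in ENR+CV than in ENR. The share of all genes called was not computed for those cells. Cox7a1 had under 1000 UMIs, so that 0 were lower in ENR+CV with that minimum. The ratios of the highest to the lowest Defa bin were, in ENR and ENR+CD, 0.749 and 0.760 with predicted alpha-defensins added to the bins, 0.778 and 0.679 outside Defa and Paneth genes, 0.551 and 0.370 of all UMIs, 0.738 and 0.580 as an unweighted mean over cells, 0.855 and 0.537 with cells of 2000 or more UMIs, 0.681 and 0.531 outside Defa and mitochondrially encoded genes, 0.676 and 0.524 without cells of 10% or more mitochondrially encoded UMIs, 0.748 and 0.647 outside Defa, predicted alpha-defensin, mitochondrially encoded and cytosolic ribosomal protein genes, 0.999 and 1.04 divided by the ratio of the median gene, which turned the ratio in ENR+CD. The highest bin of at least 20 cells did not hold like cells in all of these settings. In ENR it held 46 cells in the main result and 47 with cells of 2000 or more UMIs, there in a bin of lower Defa share. In ENR+CD it held 58, and 271 with predicted alpha-defensins added. The settings that left cells out by their Defa or mitochondrially encoded share, the minimum of 1000 UMIs and the last 2 settings of the Defa bins were chosen after seeing the data. Depth limits the calls of genes with few UMIs and of the small Defa bins.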
